A study of Arabidopsis thaliana with 6 samples.

Results

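Coumarins are phenolic compounds that Arabidopsis roots make from the phenylpropanoid pathway and release into the soil, where catechol-type coumarins such as fraxetin and sideretin reduce and mobilise iron. The 8 genes described here cover the dedicated synthesis steps, release from the glucoside, export and transcriptional control: F6'H1 (AT3G13610), COSY (AT1G28680), S8H (AT3G12900), CYP82C4 (AT4G31940), BGLU42 (AT5G36890), ABCG37 (AT3G53480, also PDR9), MYB72 (AT1G56160) and MYB10 (AT3G12820). They were chosen by locus identifier from the known pathway, with earlier results of these data known. They are 8 of the 32627 loci on the array, and all 8 were measured. BGLU42 had 2 transcript models and each of the other loci had 1, which gives 9 models of the 37118 in the table.

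RNA of Arabidopsis thaliana roots was measured on 6 one-colour expression arrays. In 3 samples, the group named root_dark, white light of 75 µmol m-2 s-1 reached the shoots while the roots were kept dark. In the other 3, root_light, which the labels treat as the control, shoot and root were both lit. All plants were 12 days old on diluted Murashige and Skoog medium, each sample came from its own culture plate, and the labels name no ecotype, mutation or added compound. Values are log2 expression values after the authors' normalization, differences are light minus dark, and errors are SD over 3 arrays or standard errors (SE) from the limma model fitted to all 37118 models.

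The pathway is textbook knowledge. F6'H1 hydroxylates feruloyl-CoA and so opens the coumarin branch, and COSY closes the ring to give scopoletin. S8H adds a hydroxyl group to scopoletin to form fraxetin, and the cytochrome P450 CYP82C4 turns fraxetin into sideretin. Scopoletin is stored as the glucoside scopolin, BGLU42 is a beta-glucosidase that frees coumarins from glucosides, and ABCG37 is a plasma membrane exporter. MYB72 and its close relative MYB10 are transcription factors of the iron deficiency response, and MYB72 is also known as a regulator of BGLU42. Low iron is known to raise transcripts of this pathway in roots.

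The mean of CYP82C4, the last enzyme of the pathway, was 6.53-fold lower in lit than in dark roots, with a wide error that kept it from passing the test. The entry enzymes F6'H1 and COSY and the exporter ABCG37 lay near the top of the scale in both groups, with differences between -0.09 and 0.11. By limma with Benjamini-Hochberg adjustment over all models, 0 of the 8 loci passed the threshold of 0.05, where 5.65% of all models passed. At an unadjusted limma p under 0.05 there were 3 of 8 (CYP82C4, S8H and BGLU42), against 21.2% of all models. The groups did not overlap for 4 of the 8, lower in light for CYP82C4 and S8H and higher for BGLU42 and F6'H1, where 28.4% of all models did not overlap. The median difference of the 8 was -0.05, beside -0.01 over all loci, and single differences ran from -2.71 to 0.32.

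**Figure D1:**
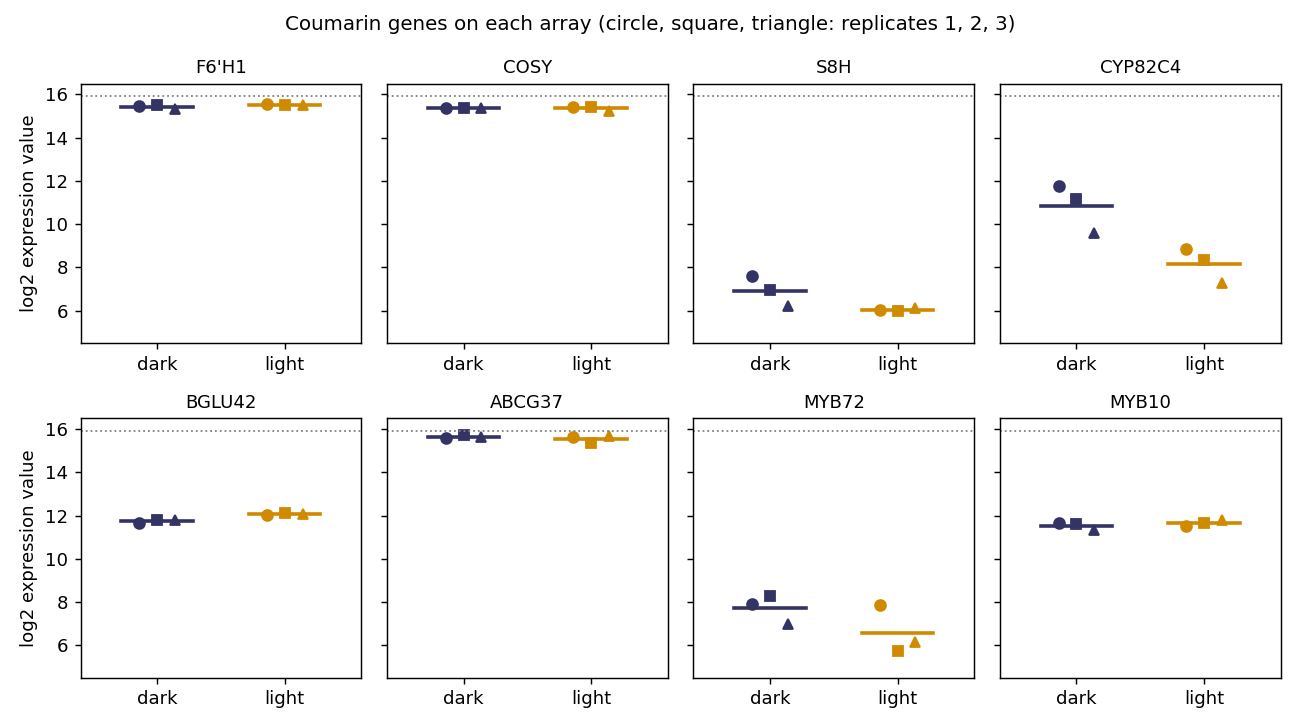
Log2 expression value of each of the 8 coumarin genes on each array, with dark roots in blue, lit roots in orange, replicates 1, 2 and 3 as circle, square and triangle, bars for group means, and the dotted line at the top of the scale (15.92). F6'H1, COSY and ABCG37 lie just under the top in both groups, CYP82C4 separates the groups, and MYB72 spreads widely within each.

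The entry enzyme F6'H1 stood at 15.45, 15.50 and 15.33 in the 3 dark samples and at 15.57, 15.51 and 15.52 in the 3 lit samples. Every lit sample was above every dark sample, by as little as 0.01. The difference was 0.11 (SE 0.08, limma adjusted p = 0.517), with a 95% confidence interval from -0.08 to 0.30.

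COSY, the ring-closing acyltransferase, was at 15.38, 15.35 and 15.36 in dark and at 15.40, 15.40 and 15.25 in light. The groups overlapped, and lit replicate 3 was the lowest of the 6. The difference was -0.01 (SE 0.08, limma adjusted p = 0.951), with an interval from -0.20 to 0.17.

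The exporter ABCG37 was at 15.58, 15.75 and 15.62 in dark and at 15.65, 15.36 and 15.67 in light. Lit replicate 2 lay below the other 5 values, which the groups shared. The difference was -0.09 (SE 0.11, limma adjusted p = 0.734), with an interval from -0.37 to 0.19. The spread of ABCG37 within groups was larger than that of 95.2% of the 3900 models of similar level.

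These 3 genes lie close to the top of the scale at 15.92, so the largest rise over the dark mean that the scale could show was 0.49 for F6'H1, 0.56 for COSY and 0.27 for ABCG37. Of the 4872 models with a mean within 1 of the top, 1.09% passed the test. How far the top of the scale narrowed the measured differences was not tested, and the intervals hold for the deposited values.

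CYP82C4 was at 11.77, 11.16 and 9.61 in dark roots and at 8.83, 8.34 and 7.25 in lit roots. All 3 lit values lay below all 3 dark values, and in both groups replicate 3 was the lowest. The dark mean was 10.85 ± 1.11 and the lit mean 8.14 ± 0.81 (SD over 3 arrays), a difference of -2.71 (SE 0.66) with a 95% confidence interval from -4.35 to -1.07. The adjusted p was 0.084 in limma, so the difference did not pass. Only 10 of the 32627 loci had a lower difference, and all 10 passed.

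The spread of CYP82C4 within groups exceeded that of 98.7% of the 1863 models of similar level. With a signal-dependent and robust variance prior, under which 10.1% of all models passed, the same difference had a limma adjusted p of 0.0271. Without any 1 array the difference was between -3.33 and -2.25, with adjusted p between 0.0611 and 0.242.

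S8H, which supplies the substrate of CYP82C4, was at 7.60, 6.93 and 6.23 in dark and at 6.02, 5.97 and 6.12 in light. The lit samples lay close together, and dark replicate 3 came within 0.11 of the highest of them. The difference was -0.88 (SE 0.34, limma adjusted p = 0.214), with an interval from -1.72 to -0.05. Both group means lie in the dim part of the scale. By the mean over all 6 arrays, 13.3% of models were dimmer. Without any 1 array the difference was between -1.23 (without dark replicate 3) and -0.54 (without dark replicate 1). The limma adjusted p was then between 0.0789 and 0.414.

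**Figure D2:**
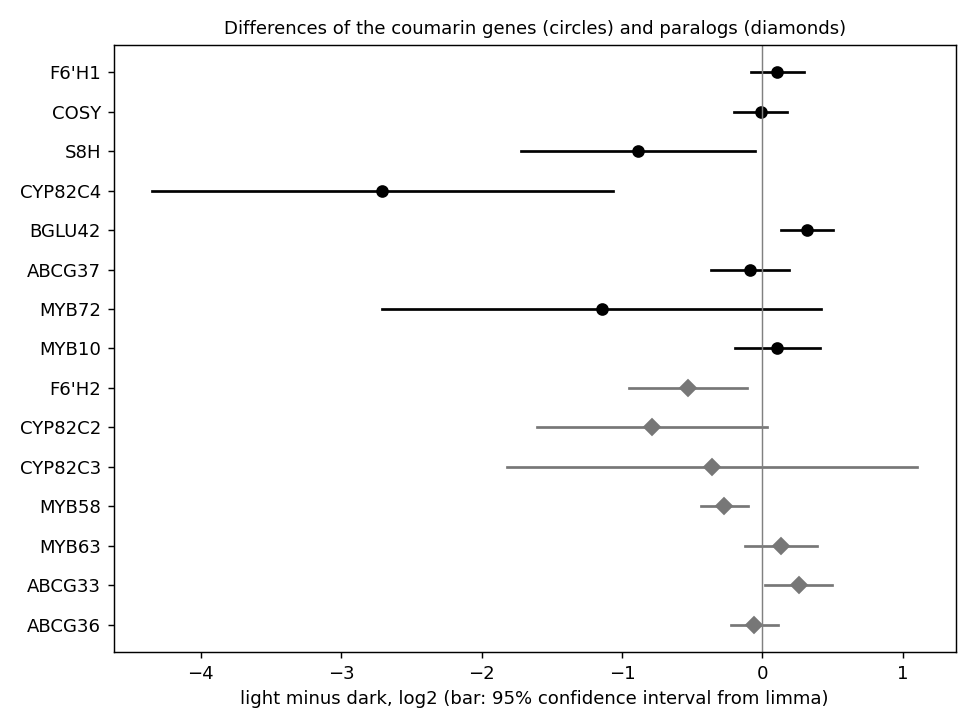
Light minus dark difference on the log2 scale (horizontal axis) for the 8 coumarin genes (black circles) and 7 paralogs (grey diamonds), with 95% confidence intervals from limma as bars. The interval of CYP82C4 runs from -4.35 to -1.07, and those of F6'H1, COSY and ABCG37 stay within 0.37 of 0.

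The beta-glucosidase gene BGLU42 was the member with the highest difference. Its brighter model was at 11.67, 11.80 and 11.81 in dark and at 12.05, 12.12 and 12.06 in light. All lit values were above all dark values, with group SDs of 0.08 and 0.04. The difference was 0.32 (SE 0.08), or 1.25-fold, with an interval from 0.13 to 0.50 and a limma adjusted p of 0.0772.

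The second BGLU42 model was at 9.36, 9.63 and 9.81 in dark and at 9.92, 9.90 and 9.95 in light, again without overlap. It gave the same difference to 2 decimals, 0.32 (SE 0.13, limma adjusted p = 0.223). With the dimmest 25% of models removed before the fit, after which 11.5% of models passed, the brighter model passed (limma adjusted p = 0.0367).

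MYB72 was at 7.90, 8.28 and 7.00 in dark and at 7.87, 5.73 and 6.15 in light. Lit replicate 1 stood at the level of the dark samples, and the groups overlapped. MYB72 was dim as well, with 21.3% of models below its mean over the 6 arrays. The difference was -1.14 (SE 0.63, limma adjusted p = 0.384), with an interval from -2.71 to 0.42. Its spread within groups was larger than that of 98.3% of the 3740 models of similar level, and without any 1 array the difference was between -1.79 and -0.72.

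MYB10 was at 11.66, 11.60 and 11.34 in dark and at 11.50, 11.64 and 11.78 in light, with overlapping groups. The difference was 0.11 (SE 0.12, limma adjusted p = 0.710), with an interval from -0.20 to 0.41, and it lay between 0.01 (without dark replicate 3) and 0.18 without any 1 array. MYB10 and S8H lie near each other on chromosome 3, with 9 protein-coding genes between them in the TAIR10.1 gene table, and their differences had opposite signs.

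For a single gene, the exact two-sided permutation test over the 20 regroupings of 3 against 3 arrays cannot go below p = 0.1. It gave 0.1 for CYP82C4, S8H, BGLU42 and F6'H1, 0.2 for MYB72, 0.5 for MYB10, 0.6 for ABCG37 and 1 for COSY.

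**Figure D3:**
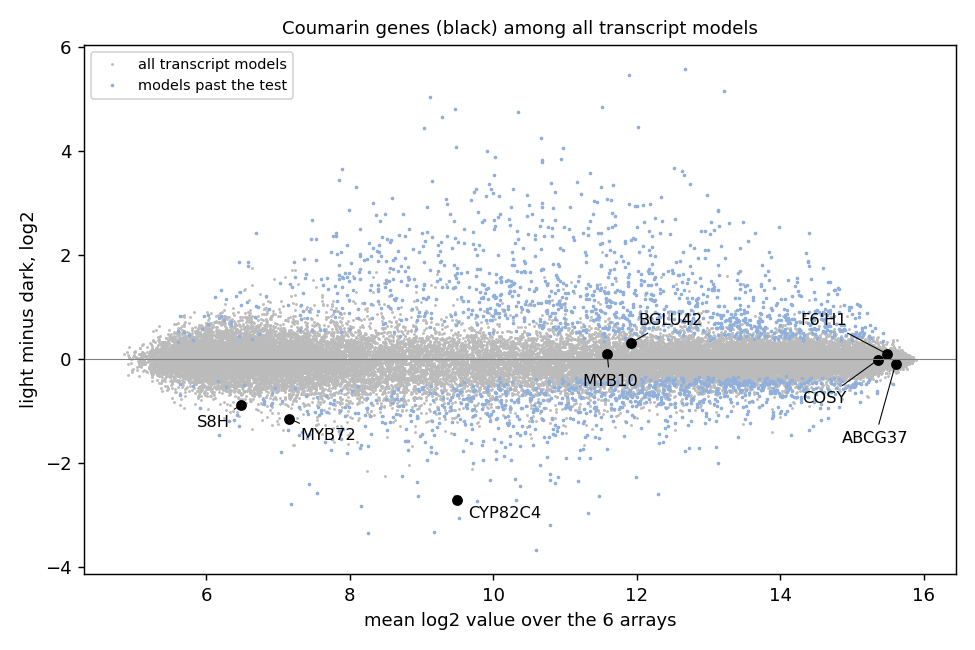
Light minus dark difference (vertical axis, log2) against the mean log2 value over the 6 arrays (horizontal axis) for all 37118 transcript models in grey, those past the test in blue and the 8 coumarin genes in black. CYP82C4 lies among the largest negative differences, and F6'H1, COSY and ABCG37 lie where the cloud narrows near the top of the scale.

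Paralogs and other scopolin-related genes were followed as a list of 10. By limma 0 of 10 passed, with 3 at an unadjusted p under 0.05, beside 5.65% and 21.2% of all models, and the median difference was -0.05. CYP82C3 is the next protein-coding gene after CYP82C4 on chromosome 4, and CYP82C2 follows with 1 gene between. CYP82C3 was at 9.45, 8.97 and 7.23 in dark and at 8.55, 8.20 and 7.83 in light, a difference of -0.36 (SE 0.59, limma adjusted p = 0.807). CYP82C2, known for the synthesis of an indole cyanogenic defence compound, was at 10.90, 10.52 and 9.60 in dark and at 9.52, 9.45 and 9.69 in light, a difference of -0.79 (SE 0.33, limma adjusted p = 0.256).

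Both neighbours overlapped between groups where CYP82C4 did not, and all 3 genes were lowest among the dark samples in replicate 3. CYP82C2 differed by -1.16 without dark replicate 3 (limma adjusted p = 0.0433) and by -0.51 without dark replicate 1 (limma adjusted p = 0.506). Probes of such close paralogs may read each other's transcripts, which was not tested because probe sequences were not used here.

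F6'H2, the paralog of F6'H1, was at 12.98, 12.95 and 13.03 in dark and at 12.71, 12.57 and 12.09 in light. All lit values were below all dark values, the opposite side from F6'H1. The difference was -0.53 (SE 0.17, limma adjusted p = 0.150).

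Among the relatives of the MYB members, MYB58 and MYB63, known as regulators of lignin genes, differed by -0.27 (SE 0.07) and 0.13 (SE 0.10). The transporter paralogs ABCG33 and ABCG36 differed by 0.26 (SE 0.10) and -0.06 (SE 0.07). The root scopolin-hydrolysing glucosidase genes BGLU21, BGLU22 and BGLU23 differed by -0.02, -0.04 and -0.01, all within 1 of the top of the scale. None of these 7 passed limma's test, with adjusted p from 0.0876 for MYB58 to 0.961 for BGLU23.

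The common phenylpropanoid steps that make feruloyl-CoA, the substrate of F6'H1, were followed in a list of 13 genes. Of these 1 rose, 0 fell and 12 did not pass limma's test, with 4 at an unadjusted p under 0.05, beside 5.65% and 21.2% of all models. The median difference was -0.01, beside -0.01 over all loci. The gene that rose was 4CL3, a 4-coumarate:CoA ligase known to serve flavonoid synthesis, at 9.47, 9.76 and 9.42 in dark and at 13.42, 13.19 and 12.79 in light. All lit values were over 3 units above the dark ones, a difference of 3.58 (SE 0.19, limma adjusted p = 0.00105), or 12.0-fold. These values are of the 4CL3 model with the highest mean. With the mean of its models the difference was smaller, 3.04 (SE 0.25, limma adjusted p = 0.00335).

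The other ligase genes 4CL5 and 4CL2 and the phenylalanine ammonia-lyase gene PAL3 differed by -0.47 (SE 0.12), -0.30 (SE 0.08) and -0.51 (SE 0.18). Each was lower in all 3 lit samples than in any dark sample, and none passed limma's test (adjusted p = 0.0984, 0.0998 and 0.176). The lowest dark and highest lit values of PAL3 were close, at 8.53 and 8.46. In this list 4 of 13 genes were lower in light without overlap, beside 5271 of 32627 loci. Of the 13 genes, 9 had a mean within 1 of the top. Among these was CCOAOMT1, chosen after its values were seen, the methyltransferase that makes feruloyl-CoA, with a difference of -0.01 (SE 0.07).

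In the monolignol list, the branch toward lignin that also draws on feruloyl-CoA, limma called 0 of 6, with 1 at an unadjusted p under 0.05, beside the same shares of all models, and the median difference was 0.06. The cinnamoyl-CoA reductase genes CCR2 and CCR1 differed by 0.40 (SE 0.12) and 0.08 (SE 0.09) and the alcohol dehydrogenase gene CAD4 by 0.08 (SE 0.08), with limma adjusted p of 0.129, 0.686 and 0.696.

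Regulators of the iron deficiency response, to which MYB72 and MYB10 belong, were followed in a list of 17. Of these 5 fell, 1 rose and 11 did not pass limma's test, where 2.43% of all models fell and 3.22% rose. The median difference was -0.34. All lists were chosen with earlier results of these data known, so such counts are no independent test. The 5 that fell were BHLH39, BHLH100 and BHLH101, transcription factor genes that act with FIT, and IMA1 and IMA2, which encode short peptides that promote iron uptake.

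IMA1 was at 10.09, 9.85 and 9.61 in dark and at 8.52, 8.54 and 7.71 in light, a difference of -1.59 (SE 0.26, limma adjusted p = 0.0282). IMA2 was at 11.41, 10.89 and 11.13 in dark and at 9.81, 9.25 and 10.19 in light, a difference of -1.39 (SE 0.27, limma adjusted p = 0.0435). Both were lower in all lit samples. With 1 array left out, each kept its call only without lit replicate 3, and limma adjusted p otherwise reached 0.108 for IMA1 and 0.146 for IMA2.

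BHLH39, BHLH101 and BHLH100 differed by -2.35 (SE 0.13), -1.94 (SE 0.19) and -2.25 (SE 0.29), and BHLH100 did not pass without dark replicate 1, dark replicate 2 or lit replicate 2 (limma adjusted p = 0.0593, 0.0604 and 0.0622). BHLH34, a factor acting upstream of these genes, rose from 11.70 ± 0.10 to 12.42 ± 0.13 (SD, n = 3, limma adjusted p = 0.0178). Its call was lost without dark replicate 1 or 2 or lit replicate 2 or 3, with limma adjusted p up to 0.0836.

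FIT, the factor required for MYB72 expression under low iron, was at 14.98, 15.18 and 14.97 in dark and at 14.67, 14.58 and 14.60 in light. The groups did not overlap, and the difference of -0.43 (SE 0.09) had a limma adjusted p of 0.0526. With the signal-dependent and robust prior its adjusted p was 0.00567. BHLH38 and the ubiquitin ligase gene BTSL1 differed by -2.04 (SE 0.53) and -0.65 (SE 0.18), neither past limma's test (adjusted p = 0.0955 and 0.102).

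**Figure D4:**
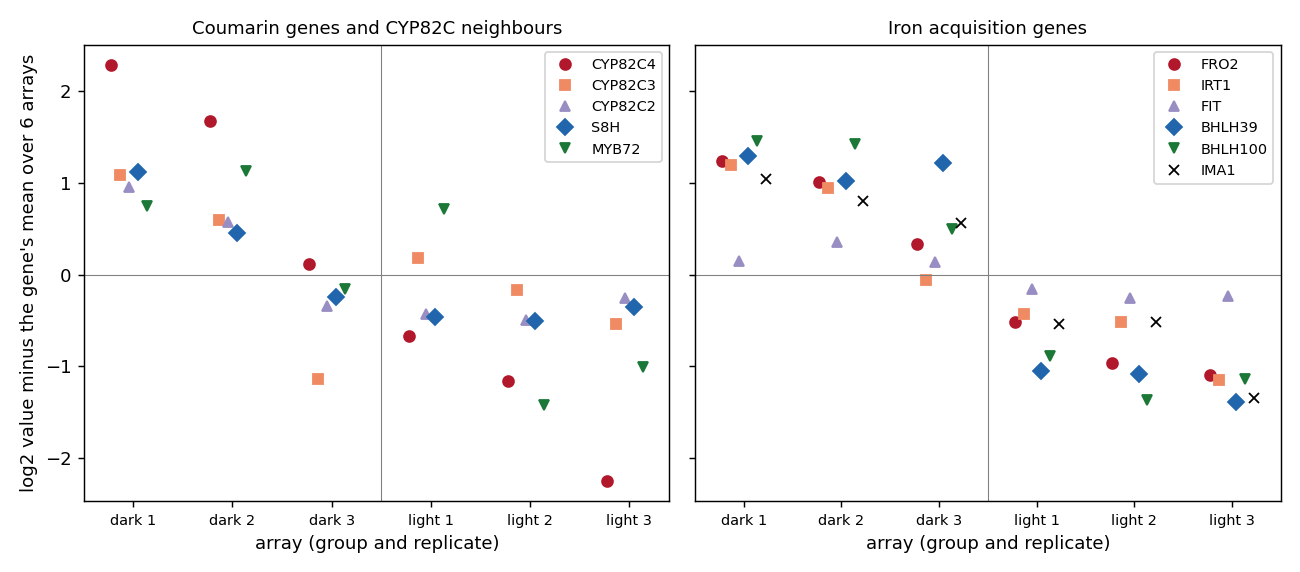
Log2 value of each gene minus its own mean over the 6 arrays (vertical axis) on each array (horizontal axis), for CYP82C4, its neighbours CYP82C3 and CYP82C2, S8H and MYB72 (left) and for 6 iron acquisition genes (right). CYP82C4 and the iron genes are above 0 in most dark samples and below 0 in lit samples, while lit replicate 1 of MYB72 lies with the dark samples.

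The reduction strategy that root coumarins supplement depends on the ferric reductase FRO2 and the iron transporter IRT1. In the list of 20 iron uptake, movement and storage genes, 3 fell, 2 rose and 15 did not pass limma's test, where 2.43% of all models fell and 3.22% rose, with a median difference of -0.14. FRO2 was at 13.96, 13.73 and 13.05 in dark and at 12.20, 11.76 and 11.63 in light, a difference of -1.72 (SE 0.28, limma adjusted p = 0.0261), and with 1 array left out it passed only without dark replicate 3 (other adjusted p 0.0509 to 0.107). IRT1 was at 15.08, 14.83 and 13.83 in dark and at 13.46, 13.37 and 12.74 in light, a difference of -1.39 (SE 0.37, limma adjusted p = 0.103). Both genes, like CYP82C4, had no overlap between groups and their lowest dark value in replicate 3.

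The phloem iron transporter gene OPT3 and the vacuolar metal transporter gene FPN2 (also IREG2) fell, with differences of -1.12 (SE 0.08) and -1.01 (SE 0.14), and FPN2 lost its call without dark replicate 1, dark replicate 2 or lit replicate 2 (limma adjusted p = 0.0665, 0.0783 and 0.0636). The citrate exporter gene FRD3 and the ferritin gene FER4, which encodes an iron store, rose by 0.46 (SE 0.07) and 0.73 (SE 0.14). Without any 1 array neither FRD3 nor FER4 passed limma's test. The FRD3 value is that of its model with the highest mean. With the mean of its models FRD3 differed by 0.36 (SE 0.10) and did not pass (limma adjusted p = 0.121). FPN1, a vascular iron exporter gene, and NRAMP3, a vacuolar iron exporter gene, differed by -0.58 (SE 0.13) and 0.48 (SE 0.12), with limma adjusted p of 0.0636 and 0.0966.

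Dark replicate 3 had the lowest of the dark values for 5 of the 8 coumarin genes, for 11 of the 17 iron regulators and for 13 of the 20 iron uptake, movement and storage genes, beside 34.1% of all loci. The same held for 6 of 10 paralog list genes, 7 of 13 upstream phenylpropanoid genes and 3 of 6 monolignol genes. Among the root and shoot markers it held for 5 of 12 and 4 of 10. Lit replicate 3 had the lowest of the lit values for 2 of the 8 coumarin genes, CYP82C4 among them, beside 34.8% of all loci. This held for 6 of the 17 iron regulators and 12 of the 20 iron uptake, movement and storage genes. It also held for 3 of 10 paralog list genes, 6 of 13 upstream phenylpropanoid genes and 5 of 6 monolignol genes. The part of either sample in the spread of CYP82C4 was not tested. Without dark replicate 3 the difference of CYP82C4 was larger, at -3.33, with a limma adjusted p of 0.0611.

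Profiles most like those of 3 members were looked up by the root mean square difference between profiles over the 6 arrays, each centred on its own mean. For F6'H1, whose 6 values span 0.24, the nearest were ADK1 (AT1G03930), GF14 PHI (AT1G35160) and ACD2 (AT4G37000), at 0.017 to 0.018, and none of them passed limma's test. For MYB72 the nearest were AT5G21030, ESM1 (AT3G14210) and AT5G35341, at 0.31, 0.34 and 0.36. Each of these has its highest lit value in replicate 1, as MYB72 does. They were picked among 4882 loci for a profile like that of MYB72, so this likeness was built into the choice. For CYP82C4, added after its values were seen, the nearest were AT1G15540, AT1G52800 and AT2G44220, at 0.40, 0.43 and 0.46. These 3 were picked among 625 loci for a profile like that of CYP82C4, so a fall was built into the choice. Their differences were -2.73, -2.44 and -2.78, with limma adjusted p of 0.018, 0.0252 and 0.0117, and are no test of CYP82C4. Likeness over 6 arrays in 2 groups is a description of these samples.

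The labelled tissue was checked with 12 root markers and 10 markers of shoot tissue that a harvest could carry over. Levels of different probes are not comparable and the table gives no detection calls, so the lists do not show how much of each tissue was present. No root marker and 7 of 10 shoot markers had a mean under 9, beside 34.7% of all loci. Of the root markers, limma called 1 higher, the nitrate transporter gene NRT2.1 (0.93, adjusted p = 0.0399), where 3.22% of all models were called higher. A further 5 of 12 were lower in light without overlap and not called, beside 5271 of 32627 loci lower without overlap, called or not. Of the shoot markers, limma called the meristem regulator genes KNAT1 higher (1.13, adjusted p = 0.0147) and STM lower (-0.84, adjusted p = 0.0202). The other 8 did not pass, where 5.65% of all models passed. Summed log2 levels of the root markers ran from 164.28 to 165.21 in dark and from 163.21 to 164.52 in light, and those of the shoot markers from 86.76 to 89.63 and from 87.04 to 88.43, sums in which opposite changes cancel. The part of these markers in the coumarin gene values was not tested. In root RNA, fewer cells of a type and less transcript per cell cannot be told apart.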

How the data were processed

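Per the labels' protocols, Trizol extracts of root RNA were column-purified, and the double-stranded cDNA made from them was Cy3-labelled for NimbleGen arrays. The authors deposited log2 expression values, from 4.70 to 15.92. Ranked values of the other arrays exceeded those of dark replicate 1 by at most 0.01. Gaps in the other direction were not computed, so quantile normalization before deposit is likely but not shown. The submitters' processing notes name limma. How probes were background-corrected and summarised, and from which annotation, is not stated in these sources. Detection calls were not used, and levels of different probes are not comparable. Arrays have no read depth, and their number limits the precision.

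The light minus dark difference was estimated by limma 3.58.1 under R 4.3.3 (lmFit, eBayes, two-sided, no covariate), with Benjamini-Hochberg adjustment over 37118 models and a threshold of 0.05. The fit was run on simulated data, where only the mean difference put in had to be recovered. Rates of missed and false calls were not part of that check. The model with the highest mean stood for a locus in the lists. The replicates are separate plates per the labels. Deviations from group means correlated at 0.01, 0.06 and 0.41 between same-numbered arrays. Between dark and lit arrays of different number they ran from -0.40 to 0.36. These values do not settle whether the numbers pair the samples, and the main fit did not treat them as pairs. RefSeq's TAIR10.1 table of genes supplied names, where all 96 listed loci were found, and names it lacks are those in common use. No set test was run. Named were all members and paralogs, and per pathway list every locus past the threshold plus the 3 next by p. For F6'H1 and MYB72 the 3 most alike loci with at least 50% of the gene's range were named. Members and lists were chosen with earlier results of these data known. Figures used Python 3.11.15 and matplotlib 3.10.9.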

Additional observations from a re-analysis of the deposited data

How the results depend on the processing

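The alternatives were each array left out, a replicate block, median centring, removal of the dimmest 25% of models, array weights, a variance prior with trend and robust fitting, and the mean of a locus's models. Median centring changed no count. Models higher in light numbered 1196, with 668 under the replicate block, 1852 under the variance prior and 607 to 905 without any 1 array. Models lower in light numbered 903, with 290 under the block, 1627 after the filter, 1879 under the variance prior and 158 to 473 without any 1 array. Of the coumarin genes, 1 was called lower with the replicate block and 1 under the variance prior, CYP82C4 in both, and 1 higher after the filter, BGLU42. Without any 1 array 0 was called in either direction. The block, which uses replicate numbers that were not shown to pair the samples, gave CYP82C4 the same difference of -2.71 with an SE of 0.15 and a limma adjusted p of 0.0191, from same-number differences of -2.94, -2.82 and -2.36. S8H and MYB72 were removed by the filter and have no value there. COSY turned to 0.0020 with array weights and ranged from -0.038 to 0.037 without any 1 array, ABCG37 ranged from -0.15 to 0.01 and CYP82C3 from -1.02 to 0.093, none called.

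In the upstream phenylpropanoid list 2 genes fell under the variance prior. Of the iron regulators, 8 fell under the variance prior, 4 with the block, where IMA2 lost its call (limma adjusted p = 0.0605), and 2 to 5 without any 1 array, and 0 rose with the block and 0 or 1 without any 1 array. Of the iron uptake, movement and storage genes, 5 fell under the variance prior and 1 to 4 without any 1 array. In that list 0 rose with the block, 1 with the mean of models and 0 without any 1 array. In the paralog list 1 gene fell after the filter and 0 or 1 without any 1 array. IRT1 passed under the block and the variance prior (limma adjusted p = 0.0385 and 0.0363). With the mean of its models IRT1 differed by -1.46 (SE 0.53) and did not pass (limma adjusted p = 0.194). Without any 1 array its limma adjusted p was between 0.0514 and 0.283. The cause of these changes was not tested.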
